A study of Mus musculus with 24 samples.

Results

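The genes described here encode the contractile apparatus of skeletal muscle, and they were measured by bulk RNA sequencing in the dental mesenchyme of the mouse first molar. They are 48 of the 56748 genes in the count table, and all 48 were found. They were picked by name from what their products do, with earlier results of these data known. Of them, 13 belong to the thick filament, 13 to the thin filament and 10 to the Z disc, the M band, titin and desmin. Another 7 belong to excitation-contraction coupling and 2 to the acetylcholine receptor. The last 3 are an energy enzyme, an oxygen carrier and an assembly factor.

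Skeletal muscle shortens when myosin heads of the thick filament pull on actin of the thin filament inside repeated units called sarcomeres. Calcium released from the sarcoplasmic reticulum binds troponin, which moves tropomyosin off the sites on actin. Most sarcomere proteins have several isoforms from separate genes, and an embryonic or fetal set is used first in development and replaced later by adult fast or slow forms. The muscles of the jaw and tongue lie close to the molar germs, while the dental mesenchyme itself comes from the cranial neural crest and forms dental pulp, dentine and periodontal tissue.

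The 24 libraries fall into 8 groups of 3, all from mandibular first molar germs of unmodified ICR mouse embryos. At the cap stage (E13) and the bell stage (E15), the mesenchyme was taken undivided (Cap-W, Bell-W) or after each germ had been cut with a fine needle into a lingual part (Cap-L, Bell-L) and a buccal part (Cap-B, Bell-B). In the groups Cap-L+2D and Cap-B+2D, the parts of cap germs were first cultured in vitro for 2 days. In every group the mesenchyme was freed from the epithelium with dispase II, so no group is a purified cell type, and material next to the cut can be carried along.

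Total counts ran from 20581720 to 39266497 per library. Of 12 genes that mark dental mesenchyme, such as Msx1 and Pax9, none was at the floor of 3 counts in all libraries of any group, and their summed level lay between 2474 and 4203 CPM in each library, where CPM is counts per 1000000 counts with TMM-adjusted library sizes. Epithelial genes were not absent, at 31.3 to 1824 CPM in sum over 10 genes. One undivided cap library, Cap-W replicate 1, stood apart from its group: a chi-square comparison of its counts with those of the other two gave 124 and 161 per degree of freedom, where sampling noise alone gives about 1, against 7.89 for the remaining pair. Bell-W replicate 3 stood apart in the same way, at 55.0 and 61.8 against 12.8. Counts of called genes, medians and summed levels that rest on the undivided groups are therefore given with and without these libraries.

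Counts of the 48 genes together took 0.0130% of the library in Cap-W replicate 1, the lowest share. Without Tpm2, a tropomyosin gene that many non-muscle cells also use, the summed level was 75.5 ± 5.03 CPM (SD, n = 3) in Cap-W, 81.1 ± 0.336 in Cap-L and 439.8 ± 5.98 in Cap-B. It was 273 ± 6.70 in Bell-L, 1780.4 ± 32.8 in Bell-B and 61.5 ± 5.87 in Bell-W. After culture it was 659.6 ± 24.1 in Cap-L+2D and 7510.3 ± 183 in Cap-B+2D. The buccal sum was thus 5.42 times the lingual one at the cap stage, 6.52 times at the bell stage and 11.4 times after culture. No 2 of the groups that were divided into parts overlapped. In such bulk samples, fewer muscle cells and less muscle RNA per cell cannot be told apart.

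**Figure D1:**
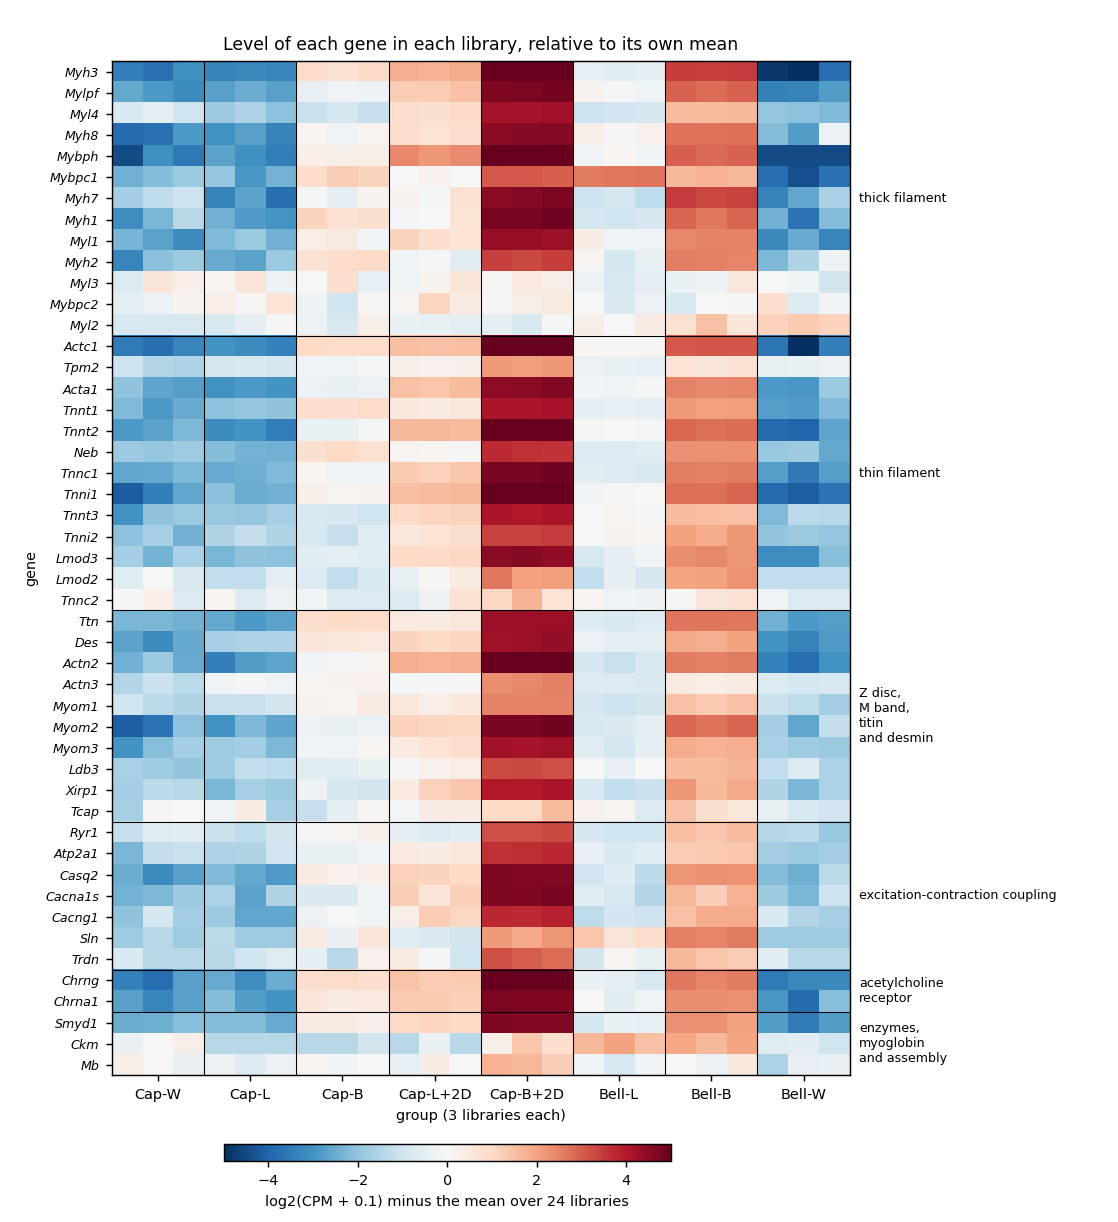
Level of each of the 48 genes (rows, by role) in each of the 24 libraries (columns, by group), as log2(CPM + 0.1) minus the gene's mean over all libraries. Red is above and blue below that mean; the color scale ends at 5 in both directions. Most rows are darkest red in Cap-B+2D, then in Bell-B, while Myl2, Myl3, Mybpc2, Mybpc1, Ckm and Sln follow other patterns.

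To ask whether the parts of the germ differ, the buccal part was compared with the lingual part in 3 settings. A gene was called where edgeR's quasi-likelihood test gave a Benjamini-Hochberg adjusted p under 0.05 over all genes tested and the log2 fold change exceeded 0.5 in size. At the cap stage, 38 of the 48 genes passed the filter on low counts, and 36 of them were called higher in Cap-B and 0 lower, where 10.4% of the 20653 genes tested were called higher and 7.10% lower. Actn3 and Myl3 were not called. The median log2 fold change of the 38 was 2.77, or 2.71 with Cacng1, which was at or under 3 counts in each Cap-L library, held at the bound of its fold. Myh1, Myh2, Myh7 and Lmod3 were also near that floor in Cap-L, with means of 0.0996, 0.102, 0.0494 and 0.0967 CPM, and were not held at a bound. Genes this low in Cap-L passed the filter through Cap-B, where they are high, which favors a call of higher. The count of 36 includes them. The median over all genes tested was -0.01.

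At the bell stage, 43 of the 48 were tested, and 41 were called higher in Bell-B and 1 lower, against 6.00% and 6.88% of 21181 genes. The median of the 43 was 2.60, also with Lmod2, at or under 3 counts in each Bell-L library, held at its bound. The gene called lower was Mybpc1, and Ckm was not called. In culture, 44 were tested, of which 43 were called higher in Cap-B+2D and 0 lower, against 12.5% of 21195 genes in each direction. The median was 3.50, also with Sln, at or under 3 counts in each Cap-L+2D library, held at its bound, and Myl3 was not called. Myl2, Mybpc2 and Tnnc2 were tested in no comparison because their counts were too low. In Tnnc2, 74.0% of exon bases are also exon of Ube2c on the other strand, and without strand the reads of such a pair cannot be told apart. The same limit holds for Mybph, which shares 49.9% with Adora1, for Mb at 31.9%, and for Atp2a1 and Ckm, whose shares are given below.

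**Figure D2:**
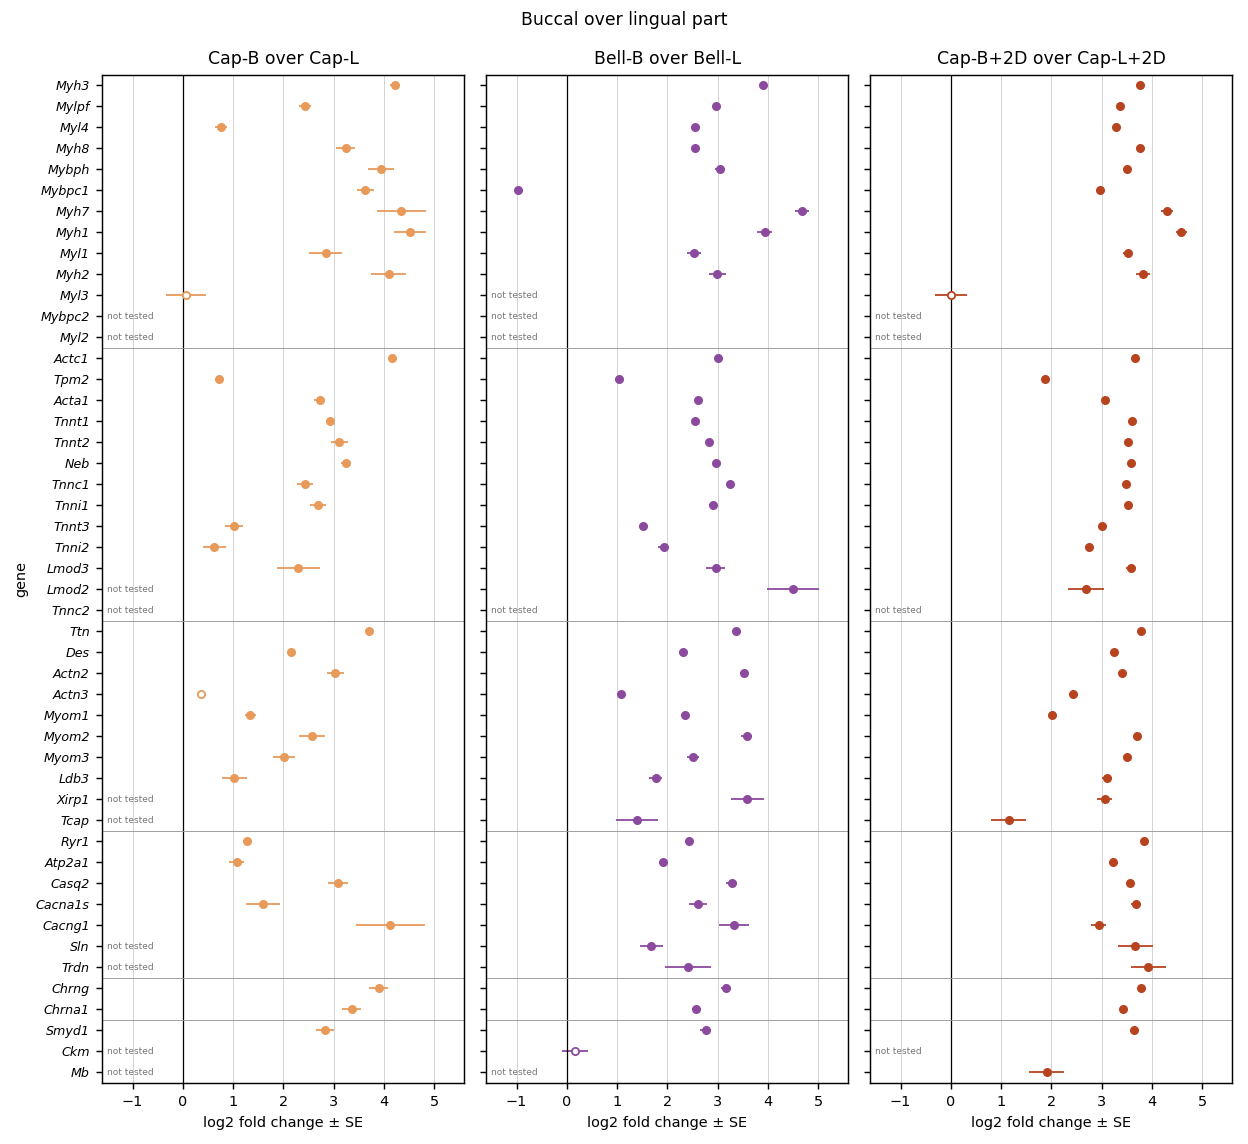
Log2 fold change of the buccal over the lingual part for each gene (rows, by role) at the cap stage, at the bell stage and after 2 days of culture, with its standard error from edgeR. Filled points were called and open points were not. Nearly all points lie to the right of 0, with Mybpc1 at the bell stage at -0.98 to the left.

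The thick filament genes had a median log2 fold change of 3.63 at the cap stage, 2.98 at the bell stage and 3.52 in culture. Myh3, the embryonic myosin heavy chain, read 2.34, 2.58 and 2.47 CPM in the 3 Cap-L libraries and 46.3, 41.1 and 47.5 in the 3 Cap-B libraries. It read 18.5, 17.3 and 17.9 in Bell-L and 269, 262 and 278 in Bell-B, and 87.4, 82.6 and 89.8 in Cap-L+2D and 1176, 1166 and 1227 in Cap-B+2D. Every buccal library was above every lingual library of its setting. The log2 fold change was 4.21 ± 0.085 at the cap stage (SE; edgeR adjusted p = 2.97e-17), 3.91 ± 0.041 at the bell stage and 3.77 ± 0.043 in culture. In the undivided mesenchyme Myh3 read 2.18, 1.79 and 2.83 in Cap-W and 0.777, 0.661 and 1.69 in Bell-W, so Cap-W overlapped Cap-L and Bell-W lay below it.

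Myh8, the perinatal heavy chain, was lower than Myh3 in CPM in all libraries of the divided germs. It read 0.540, 0.701 and 0.423 in Cap-L, 5.55, 4.56 and 5.71 in Cap-B, 6.33, 5.35 and 6.07 in Bell-L and 34.3, 34.7 and 35.2 in Bell-B. In culture it read 9.61, 8.36 and 9.39 in Cap-L+2D and 121, 124 and 126 in Cap-B+2D, and the undivided libraries read 0.266, 0.298 and 0.620 in Cap-W and 1.07, 0.661 and 4.21 in Bell-W. Buccal libraries were higher without overlap in each setting, by 3.24 ± 0.19, 2.55 ± 0.068 and 3.75 ± 0.056 on the log2 scale (SE).

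Myh1 encodes an adult fast heavy chain and Myh7 the slow heavy chain, which is listed here as a slow and not as a later form. Myh1 read 0.144, 0.0842 and 0.0706 CPM in Cap-L, 2.71, 2.05 and 2.17 in Cap-B, 0.610, 0.546 and 0.630 in Bell-L, 9.73, 8.08 and 9.63 in Bell-B, 1.12, 1.17 and 1.97 in Cap-L+2D and 34.5, 34.96 and 37.4 in Cap-B+2D. Its cap stage difference of 4.51 ± 0.32 (SE) was the largest among the 38 genes tested there. The Cap-L values of Myh1 lie near the floor of 3 counts, which is 0.108, 0.0842 and 0.106 CPM in those libraries. The size of that difference, and its rank, thus rest on a few counts. Myh7 read 0.0360, 0.112 and 0 in Cap-L, 1.17, 0.878 and 1.46 in Cap-B, 0.572, 0.655 and 0.464 in Bell-L, 15.4, 13.9 and 14.1 in Bell-B, 1.46, 1.21 and 2.22 in Cap-L+2D and 31.6, 32.9 and 35.7 in Cap-B+2D. Its bell stage difference of 4.68 ± 0.14 was the largest of the 43 there. In the undivided libraries Myh1 read 0.0531, 0.166 and 0.399 in Cap-W and 0.148, 0 and 0.191 in Bell-W, and Myh7 read 0.319, 0.463 and 0.576 and 0.0370, 0.124 and 0.351. Both genes were thus detected in the buccal part, at levels well under that of Myh3. Myh1, Myh2, Myh3 and Myh8 lie side by side on chromosome 11 and are alike in sequence; reads that fit several of them were left out by the authors' counting.

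Among the myosin light chains, Mylpf, the fast regulatory chain, read 1.51, 1.80 and 1.52 CPM in Cap-L, 7.85, 9.16 and 8.67 in Cap-B, 11.7, 10.0 and 8.88 in Bell-L, 82.2, 73.1 and 82.1 in Bell-B, 25.6, 25.5 and 28.8 in Cap-L+2D and 267, 272 and 294 in Cap-B+2D, with 1.70, 1.32 and 1.11 in Cap-W and 0.925, 0.950 and 1.43 in Bell-W. Its differences were 2.43 ± 0.12, 2.96 ± 0.061 and 3.37 ± 0.052 on the log2 scale (SE). Myl4, the embryonic and atrial essential chain, differed less between the parts at the cap stage, where it read 4.50, 5.47 and 3.81 in Cap-L and 7.30, 8.66 and 7.17 in Cap-B, a difference of 0.76 ± 0.12. The gap was wider at the bell stage, with 7.78, 8.26 and 8.95 in Bell-L and 47.4, 47.9 and 50.5 in Bell-B, and in culture, with 29.7, 28.3 and 31.2 in Cap-L+2D and 289, 287 and 295 in Cap-B+2D. The undivided cap libraries, at 9.45, 11.4 and 8.06, were above Cap-L and overlapped Cap-B, and Bell-W read 4.18, 3.80 and 3.41.

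Myl1 encodes the fast essential chain. It read 0.180, 0.253 and 0.141 CPM in Cap-L, 1.53, 1.63 and 1.06 in Cap-B, 1.56, 1.02 and 1.03 in Bell-L, 6.68, 7.15 and 6.97 in Bell-B, 2.71, 2.17 and 1.97 in Cap-L+2D and 25.8, 25.8 and 25.7 in Cap-B+2D. It was near the floor in the undivided groups, at 0.159, 0.0993 and 0.0443 in Cap-W and 0.0370, 0.124 and 0.0319 in Bell-W. Myl3, the slow and ventricular essential chain, stayed between 0.159 and 0.794 CPM in all 24 libraries, and its log2 difference between the parts was 0.06 ± 0.39 at the cap stage and 0.01 ± 0.32 in culture (SE). In single groups it read 0.432, 0.645 and 0.318 in Cap-L, 0.406, 0.794 and 0.276 in Cap-B, 0.333, 0.462 and 0.647 in Cap-L+2D and 0.422, 0.598 and 0.511 in Cap-B+2D. The bell libraries read 0.305, 0.182 and 0.265 in Bell-L, 0.295, 0.320 and 0.631 in Bell-B and 0.407, 0.330 and 0.159 in Bell-W, and Cap-W read 0.212, 0.662 and 0.531.

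Mybpc1, slow myosin binding protein C, went against the other genes at the bell stage. It read 34.1, 34.2 and 35.5 CPM in Bell-L and 17.2, 18.4 and 17.2 in Bell-B, so every lingual library was above every buccal one, with a log2 fold change of -0.98 ± 0.054 (SE; edgeR adjusted p = 6.52e-19). At the cap stage the order was the usual one, with 1.37, 0.645 and 0.988 in Cap-L and 10.5, 13.0 and 12.1 in Cap-B, and in culture with 5.45, 6.33 and 5.62 in Cap-L+2D and 46.1, 46.4 and 44.6 in Cap-B+2D. The change of the side difference from cap to bell was -4.61 ± 0.16. Bell-W read 0.296, 0.165 and 0.319, far under both of its parts, and Cap-W read 0.956, 1.16 and 1.46. Mybpc2, the fast binding protein, read 0.252, 0.196 and 0.353 in Cap-L, 0.135, 0.0418 and 0.197 in Cap-B, 0.191, 0.0728 and 0.133 in Bell-L and 0.0655, 0.178 and 0.166 in Bell-B. It read 0.208, 0.498 and 0.281 in Cap-L+2D, 0.197, 0.246 and 0.287 in Cap-B+2D, 0.106, 0.132 and 0.221 in Cap-W and 0.407, 0.0826 and 0.159 in Bell-W, and was too low to test.

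Of the thin filament genes, Actc1 had the highest level per length in the 3 buccal groups. Actc1 encodes cardiac alpha-actin, which is also the main sarcomeric actin of embryonic skeletal muscle, and Acta1 encodes the skeletal alpha-actin that replaces it. Both are known targets of serum response factor, which binds the CArG box. The 250 bases before each gene's RefSeq start were searched on both strands for this box and for other motifs. Windows of 37 of the 48 genes were found in the RefSeq table (build GRCm38.p6), and 5 of these genes had a CArG box. Among windows, it was 6 of 44, against 1.47% of the 32851 windows of all genes. An E-box (CANNTG) was in 81.8% of the 44 windows, against 66.2% of all windows. The shares were 11.4% against 2.92% for a MEF2 site, 20.45% against 12.4% for TATAAA and 22.7% against 12.6% for MCAT (CATTCC). Below, the CArG box is in capitals with 10 bases on either side, and all 5 are shown so that the actin genes can be read beside the other holders of that box.

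Actc1, chr2:113883384-113883413, minus strand: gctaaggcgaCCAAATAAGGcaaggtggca
Acta1, chr8:124621568-124621597, minus strand: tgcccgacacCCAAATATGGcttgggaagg
Ldb3, chr14:34310654-34310683, minus strand: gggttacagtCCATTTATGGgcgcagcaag
Myom1, chr17:71326443-71326472, plus strand: gccttcctggCCATAAAAGGctggctgtgg
Myl3, chr9:110592651-110592680, plus strand: gagccaatgcCCTTTTATGGccctgtccct

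The boxes start 47, 73, 35, 99 and 85 bases before the RefSeq start, in that order. Positions are those of an exact match of each window to GRCm39. A match of letters is a description and does not show that a factor was bound. The group holds both Actc1, among the genes with the largest differences, and Myl3, which was not called. Each of the 5 sites also overlaps an exon of its own gene in some GENCODE vM39 transcript.

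Actc1 read 5.62, 4.94 and 4.23 CPM in Cap-L and 91.1, 84.7 and 85.4 in Cap-B, 48.8, 47.1 and 46.4 in Bell-L and 374, 388 and 385 in Bell-B, and 129, 123 and 129.7 in Cap-L+2D and 1582, 1614 and 1636 in Cap-B+2D. The undivided libraries read 3.82, 3.24 and 4.43 in Cap-W and 3.63, 1.20 and 4.08 in Bell-W. Buccal and lingual libraries did not overlap in any setting, and the log2 fold changes were 4.17 ± 0.074, 3.01 ± 0.035 and 3.65 ± 0.04 (SE; edgeR adjusted p = 5.14e-18, 2.15e-42 and 1.40e-27). Per length, Actc1 was the highest of the 48 genes in Cap-B, Cap-L+2D, Cap-B+2D and Bell-B, with a mean of 130.5 TPM (CPM-like units that also divide by exon length), 177 TPM, 2360 TPM and 552 TPM, while Tpm2 was the highest in the other 4 groups.

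Acta1 read 1.76, 1.96 and 1.83 CPM in Cap-L, 12.2, 11.7 and 12.3 in Cap-B, 13.7, 13.0 and 14.6 in Bell-L, 85.4, 81.0 and 83.9 in Bell-B, 41.6, 40.0 and 45.1 in Cap-L+2D and 336, 350.4 and 381 in Cap-B+2D, with 3.72, 2.35 and 2.17 in Cap-W and 1.96, 1.94 and 4.08 in Bell-W. Its differences of 2.72 ± 0.11, 2.60 ± 0.049 and 3.06 ± 0.053 (SE) were below those of Actc1 at each of the 3. Tpm2 was present everywhere, at 71.8, 52.8 and 50.6 in Cap-W, 112, 115 and 121 in Bell-W, 79.6, 86.9 and 79.1 in Cap-L and 135, 128 and 135 in Cap-B. It read 118, 112 and 111 in Bell-L, 232, 223 and 240.2 in Bell-B, 175, 168 and 177 in Cap-L+2D and 637, 619.7 and 662 in Cap-B+2D. Its bell stage difference of 1.03 ± 0.034 was the smallest of those called higher there.

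**Figure D3:**
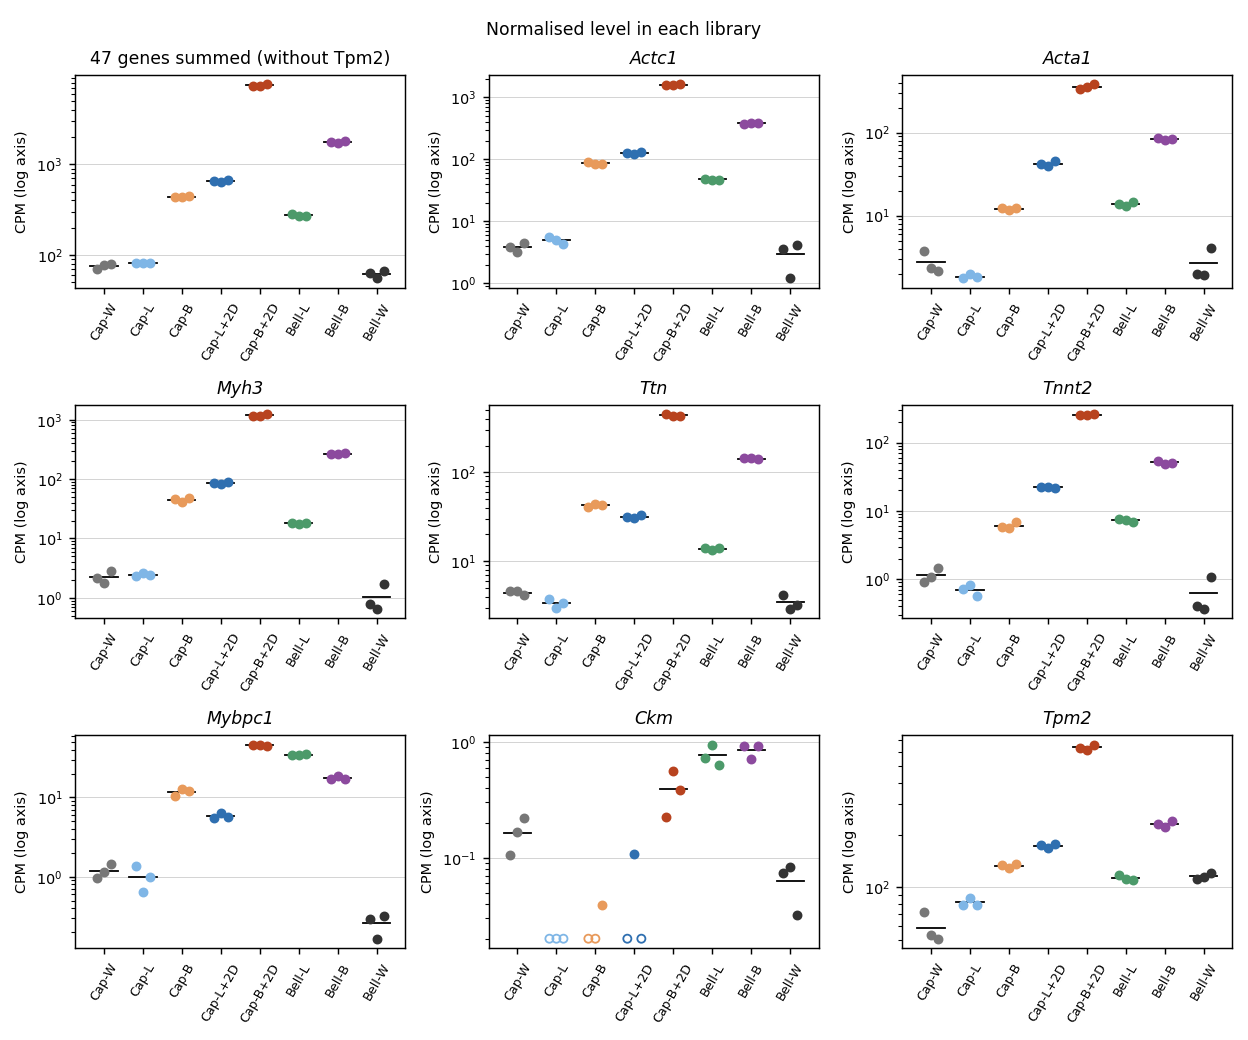
Level in each library (points, TMM-normalised CPM on a log axis) of the sum of 47 genes without Tpm2 and of 8 single genes, by group, with the group mean as a line. Open points mark 0 counts and are drawn at the bottom of the Ckm panel, where groups with a 0 have no mean line. Cap-B+2D is highest in each panel but that of Ckm, and Bell-L is above Bell-B in that of Mybpc1.

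The troponin T genes are Tnnt1 (slow), Tnnt2 (cardiac and embryonic) and Tnnt3 (fast). Tnnt1 read 4.18, 4.49 and 4.30 CPM in Cap-L, 32.4, 31.7 and 32.7 in Cap-B, 12.8, 13.2 and 12.5 in Bell-L, 77.4, 72.2 and 75.3 in Bell-B, 25.5, 22.9 and 24.9 in Cap-L+2D, 301, 296 and 304 in Cap-B+2D, 3.72, 2.32 and 2.92 in Cap-W and 2.48, 2.40 and 3.67 in Bell-W. Tnnt2 read 0.720, 0.814 and 0.564 in Cap-L, 5.73, 5.52 and 6.78 in Cap-B, 7.63, 7.35 and 6.80 in Bell-L, 53.7, 49.1 and 50.7 in Bell-B, 22.4, 22.2 and 21.9 in Cap-L+2D, 254, 255 and 258 in Cap-B+2D, 0.903, 1.06 and 1.46 in Cap-W and 0.407, 0.372 and 1.08 in Bell-W. Tnnt3 read 1.19, 1.15 and 1.41 in Cap-L, 2.66, 2.51 and 2.29 in Cap-B, 4.62, 5.09 and 4.34 in Bell-L, 13.7, 13.5 and 13.1 in Bell-B, 8.99, 9.92 and 10.2 in Cap-L+2D, 80.0, 76.3 and 79.1 in Cap-B+2D, 0.478, 1.06 and 1.20 in Cap-W and 0.925, 1.78 and 1.72 in Bell-W. At the cap stage the slow and embryonic forms differed more between the parts, by 2.92 ± 0.072 and 3.11 ± 0.17 on the log2 scale, than the fast form, by 1.02 ± 0.17 (SE). After culture the fast form differed by 3.00 ± 0.056, against 3.61 ± 0.046 and 3.52 ± 0.044. In Cap-L the mean was 1.25 CPM for Tnnt3, 0.699 for Tnnt2 and 4.32 for Tnnt1. Folds also depend on this level, and how much of it came from muscle was not tested.

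Troponin I showed a like picture. Tnni1, the slow form, read 0.972, 0.729 and 0.776 CPM in Cap-L, 5.59, 4.93 and 5.12 in Cap-B, 4.16, 4.26 and 4.44 in Bell-L, 30.9, 30.7 and 35.1 in Bell-B, 13.0, 13.4 and 14.5 in Cap-L+2D, 149, 157 and 172 in Cap-B+2D, 0.159, 0.331 and 0.664 in Cap-W and 0.222, 0.165 and 0.255 in Bell-W. Tnni2, the fast form, read 0.828, 1.04 and 0.811 in Cap-L, 1.40, 1.09 and 1.62 in Cap-B, 2.56, 2.87 and 2.75 in Bell-L, 10.4, 9.25 and 11.5 in Bell-B, 3.62, 4.05 and 4.47 in Cap-L+2D, 27.3, 27.01 and 29.02 in Cap-B+2D, 0.531, 0.728 and 0.399 in Cap-W and 0.555, 0.620 and 0.574 in Bell-W. The cap stage difference was 2.69 ± 0.16 for Tnni1 and 0.63 ± 0.22 for Tnni2 (SE). The latter was the smallest of those called there (edgeR adjusted p = 0.0312), and it was not called by DESeq2 or without any 1 of 4 of the 6 libraries, Cap-B replicates 1 and 3 and Cap-L replicates 1 and 3, at 0.49 to 0.61.

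Tnnc1, the slow and cardiac troponin C, read 0.972, 1.04 and 1.23 CPM in Cap-L, 6.54, 5.18 and 5.44 in Cap-B, 4.04, 3.86 and 3.48 in Bell-L, 36.1, 35.5 and 36.5 in Bell-B, 15.3, 13.4 and 16.1 in Cap-L+2D, 164, 165 and 175 in Cap-B+2D, 0.903, 0.927 and 1.20 in Cap-W and 0.814, 0.413 and 0.797 in Bell-W. For Tnnc2, the fast form, 74.0% of exon bases are shared with Ube2c, and how far this changed its count was not tested. Its low values are thus no measure of how little fast troponin C there was. Tnnc2 read at most 0.422 CPM, in a Cap-B+2D library. That group read 0.225, 0.422 and 0.160, Cap-L+2D 0, 0.0356 and 0.169, Bell-B 0.0655, 0.142 and 0.166 and Bell-L 0.0763, 0.0364 and 0.0331, while Cap-B read 0.0451, 0 and 0, Cap-L 0.0720, 0 and 0.0353, Cap-W 0.0531, 0.0993 and 0 and Bell-W 0.0370, 0 and 0. All 11 thin filament genes tested at the cap stage, and all 12 at the bell stage and in culture, were called higher in the buccal part.

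Titin, the giant spring of the sarcomere, and desmin, the intermediate filament that ties Z discs together, are encoded by Ttn and Des. Ttn read 3.74, 3.00 and 3.39 CPM in Cap-L, 41.1, 44.7 and 42.8 in Cap-B, 14.0, 13.3 and 14.1 in Bell-L, 144, 145 and 141 in Bell-B, 31.6, 30.3 and 33.5 in Cap-L+2D, 450.0, 430.5 and 436 in Cap-B+2D, 4.57, 4.57 and 4.12 in Cap-W and 4.18, 2.93 and 3.19 in Bell-W. Its differences between the parts were 3.70 ± 0.082, 3.37 ± 0.043 and 3.78 ± 0.044 on the log2 scale (SE). Des, which smooth muscle also makes, read 6.23, 6.73 and 6.81 in Cap-L, 30.1, 28.6 and 28.2 in Cap-B, 16.2, 14.7 and 14.8 in Bell-L, 73.8, 71.3 and 81.2 in Bell-B, 43.5, 40.3 and 42.6 in Cap-L+2D, 381, 403 and 422 in Cap-B+2D, 3.03, 2.15 and 3.28 in Cap-W and 2.44, 1.90 and 2.71 in Bell-W. Its difference was 2.16 ± 0.072 at the cap stage, 2.31 ± 0.053 at the bell stage and 3.25 ± 0.048 in culture.

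Tcap encodes telethonin, a titin cap that appears late. It stayed under 1 CPM, at 0.180, 0.309 and 0 in Cap-L, 0.0451, 0.125 and 0.236 in Cap-B, 0.267, 0.255 and 0.0994 in Bell-L, 0.786, 0.463 and 0.365 in Bell-B, 0.208, 0.320 and 0.309 in Cap-L+2D, 0.535, 0.528 and 0.862 in Cap-B+2D, 0, 0.232 and 0.221 in Cap-W and 0.148, 0.0826 and 0.0638 in Bell-W. It was called higher in Bell-B by 1.39 ± 0.42 and in Cap-B+2D by 1.15 ± 0.34 (SE), but neither call was made by DESeq2 or with all 24 libraries in 1 fit. Without Bell-B replicate 1 or Bell-L replicate 3 the bell stage value was 1.01 or 1.04 and not called, and without Cap-B+2D replicate 3 that in culture was 0.88 and not called. The other Z disc and M band genes were Actn2, Actn3, Ldb3, Myom1, Myom2, Myom3 and Xirp1. Of the group of 10, 7 of 8 tested were called higher at the cap stage, and 10 of 10 both at the bell stage and in culture. Actn3, the fast-fibre alpha-actinin, differed by 0.35 ± 0.065 at the cap stage, inside the limit of 0.5, against 3.03 ± 0.16 for Actn2, the form of all fibres.

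Of the genes that couple excitation to contraction, Ryr1 encodes the calcium release channel. It read 11.3, 9.93 and 12.8 CPM in Cap-L, 25.1, 26.8 and 28.7 in Cap-B, 13.2, 12.1 and 11.9 in Bell-L, 67.7, 63.7 and 70.4 in Bell-B, 16.9, 15.0 and 16.5 in Cap-L+2D, 225, 228 and 241 in Cap-B+2D, 10.8, 15.9 and 16.7 in Cap-W and 8.85, 9.62 and 6.47 in Bell-W. Atp2a1, the fast-fibre calcium pump, read 2.63, 2.75 and 4.09 in Cap-L, 6.31, 6.31 and 6.74 in Cap-B, 5.91, 4.58 and 5.37 in Bell-L, 19.1, 19.5 and 20.8 in Bell-B, 11.3, 10.4 and 11.9 in Cap-L+2D, 99.6, 104 and 111 in Cap-B+2D, 1.54, 3.44 and 3.63 in Cap-W and 2.33, 2.11 and 2.36 in Bell-W; 21.9% of its exon bases are shared with Rabep2 on the other strand. For both, the difference grew from cap to bell to culture, as 1.28 ± 0.085, 2.44 ± 0.054 and 3.83 ± 0.052 for Ryr1 and 1.07 ± 0.14, 1.91 ± 0.081 and 3.22 ± 0.06 for Atp2a1 on the log2 scale (SE).

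Sln encodes sarcolipin, a small inhibitor of the pump. It was at or under 3 counts in every library of Cap-W, Cap-L, Cap-L+2D and Bell-W, with 0, 0.0331 and 0 CPM in Cap-W, 0.0360, 0 and 0 in Cap-L and 0.125, 0.107 and 0.0843 in Cap-L+2D and no count in Bell-W. It read 0.361, 0.167 and 0.434 in Cap-B, 0.801, 0.437 and 0.530 in Bell-L, 1.87, 1.78 and 1.99 in Bell-B and 1.41, 1.16 and 1.501 in Cap-B+2D. Against the floor of 3 counts per library, Sln was at least 12.9-fold higher in Cap-B+2D than in Cap-L+2D, and at least 5.93-fold higher in Bell-L than in Cap-L. All 5 of the coupling genes tested at the cap stage, and all 7 at the bell stage and in culture, were called higher in the buccal part.

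The acetylcholine receptor takes up the nerve signal on the fibre. Chrna1, its alpha subunit, read 0.756, 0.449 and 0.388 CPM in Cap-L, 5.68, 4.98 and 5.32 in Cap-B, 3.74, 2.51 and 3.18 in Bell-L, 18.9, 18.9 and 18.5 in Bell-B, 9.49, 9.42 and 8.66 in Cap-L+2D, 100.5, 96.1 and 97.8 in Cap-B+2D, 0.478, 0.298 and 0.487 in Cap-W and 0.407, 0.165 and 0.765 in Bell-W. Chrng, the gamma subunit of the fetal receptor, read 0.468, 0.281 and 0.494 in Cap-L, 5.95, 6.10 and 5.79 in Cap-B, 2.40, 2.26 and 1.79 in Bell-L, 20.2, 17.5 and 19.9 in Bell-B, 8.62, 7.86 and 8.01 in Cap-L+2D, 104, 115 and 121 in Cap-B+2D, 0.212, 0.132 and 0.399 in Cap-W and 0.185, 0.248 and 0.255 in Bell-W. Both were higher in the buccal part without overlap in each setting, Chrng by 3.89 ± 0.18, 3.17 ± 0.10 and 3.79 ± 0.067 on the log2 scale (SE). Chrne, whose epsilon subunit takes the place of gamma after birth, was at or under 3 counts in all libraries of Cap-B and Cap-B+2D.

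Ckm encodes muscle creatine kinase, an energy enzyme of mature fibres. It had no count in the 3 Cap-L libraries and read 0, 0 and 0.0394 CPM in Cap-B, 0, 0.107 and 0 in Cap-L+2D and 0.225, 0.563 and 0.383 in Cap-B+2D. At the bell stage it read 0.725, 0.946 and 0.630 in Bell-L and 0.917, 0.712 and 0.930 in Bell-B, which overlapped, with a difference of 0.16 ± 0.26 (SE; edgeR adjusted p = 0.677). The undivided groups read 0.106, 0.166 and 0.221 in Cap-W and 0.0740, 0.0826 and 0.0319 in Bell-W, and 21.4% of its exon bases are shared with a gene on the other strand. Smyd1, a methyltransferase that helps fold myosin, read 0.684, 0.701 and 0.529 in Cap-L, 4.60, 4.72 and 4.18 in Cap-B, 1.83, 2.69 and 2.59 in Bell-L, 17.0, 17.4 and 14.2 in Bell-B, 7.08, 7.40 and 6.97 in Cap-L+2D, 90.4, 89.2 and 88.5 in Cap-B+2D, 0.531, 0.563 and 0.709 in Cap-W and 0.407, 0.206 and 0.414 in Bell-W. It followed the main pattern, with differences of 2.82 ± 0.17, 2.76 ± 0.11 and 3.64 ± 0.056. Myoglobin, encoded by Mb, was tested between the parts only in culture, where it was called higher in Cap-B+2D by 1.91 ± 0.35. Mb read under 1 CPM in every library, and 31.9% of its exon bases are shared with genes on the other strand.

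To ask whether the side difference itself changed, its interaction with stage was tested over 12 libraries. Of 44 genes tested, 12 had a larger buccal excess at the bell stage than at the cap stage and 10 a smaller one, where 14.5% and 18.0% of the 21931 genes tested passed at an adjusted p under 0.05 with no limit on the fold. A side difference on the log2 scale also depends on the level in the lingual part, and how much of that level came from muscle was not tested. Larger were Myl4 (1.78 ± 0.14 on the log2 scale, SE), Tnni2 (1.29 ± 0.25), Ryr1 (1.15 ± 0.10), Atp2a1 (0.83 ± 0.17), Tnnc1 (0.82 ± 0.19), Mylpf, Tnnt3, Tpm2, Actn3, Ldb3, Myom1 and Myom2. Smaller were Mybpc1 (-4.61 ± 0.16), Actc1 (-1.16 ± 0.086), Chrna1 (-0.79 ± 0.25), Chrng (-0.73 ± 0.26), Myh8 (-0.69 ± 0.21), Tnnt1, Ttn, Myh3, Mybph and Sln, the last of which was at or under 3 counts in Cap-L. Of the 6 embryonic or fetal forms, 4 were in the smaller set and 1, Myl4, in the larger set. Myh8 is counted here as a fetal form, while in the ratios further on it stands as the later form beside Myh3. The 10 smaller ones became 4 without Cap-L replicate 2 and 6 without Cap-L replicate 3 or by DESeq2. The 10 were also not far above the share over all genes, so nothing is drawn from them about embryonic forms as a class. Which embryonic or fetal forms kept their place in those fits is not given.

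In the interaction with culture, 19 of 44 genes had a larger buccal excess in Cap-B+2D over Cap-L+2D than in Cap-B over Cap-L and 3 a smaller one, against 16.0% and 19.5% of 22098 genes. Larger were Ryr1 (2.55 ± 0.099 on the log2 scale, SE), Myl4 (2.52 ± 0.12), Atp2a1 (2.14 ± 0.15), Tnni2 (2.13 ± 0.24), Tnnt3 (1.98 ± 0.18) and 14 others. Smaller were Mybpc1 (-0.67 ± 0.19), Actc1 (-0.52 ± 0.088) and Myh3 (-0.44 ± 0.11). Both interactions rest on the same Cap-L and Cap-B libraries, which is why their gene sets are not compared.

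Next, each side was followed over time. In the buccal part, 42 of 45 genes tested were called higher in Bell-B than in Cap-B and 0 lower, against 12.0% and 6.73% of 21992 genes. Of the same 45, 44 were called higher in Cap-B+2D than in Cap-B and 0 lower, against 17.9% and 16.6%. The median log2 fold change was 2.14 in the first and 4.24 in the second comparison, or 4.19 with genes at the floor held at their bound, and both share the Cap-B libraries. Markers of other cell types moved as well. From Cap-B to Cap-B+2D, 10 of 10 epithelial, 8 of 8 endothelial and 8 of 8 red blood cell markers were called lower, with medians of -3.02, -1.30 and -6.18, and 7 of 10 smooth muscle and 6 of 8 macrophage markers higher. From Cap-B to Bell-B, 8 of 10 epithelial, 8 of 8 macrophage and 6 of 10 smooth muscle markers were called higher. Their part in the values here was not tested. For the embryonic genes the pair of values was 2.58 ± 0.043 and 4.69 ± 0.044 in Myh3 (SE), 2.13 ± 0.036 and 4.18 ± 0.038 in Actc1, and 3.08 ± 0.064 and 5.37 ± 0.055 in Tnnt2. For Acta1 it was 2.78 ± 0.059 and 4.84 ± 0.054, for Myh7 3.61 ± 0.13 and 4.79 ± 0.11, and for Mybpc1 0.56 ± 0.069 and 1.91 ± 0.061.

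Set against each other, the cultured buccal part had more of most of these transcripts than the part taken from the embryo at the bell stage. Of 45 genes, 40 were called lower in Bell-B than in Cap-B+2D and 1, Ckm, higher, against 15.5% and 16.3% of genes. The median was -1.97, and the sum without Tpm2 was 4.22 times as high in Cap-B+2D. Ckm, at least 6.75-fold higher in Bell-B and at least 3.09-fold higher in Cap-B+2D than in Cap-B, differed between the former pair by 1.20 ± 0.31 (SE; edgeR adjusted p = 0.000986). Sln, the next, differed by 0.49 ± 0.18, just inside the limit. The number called higher was 2 by DESeq2, and 2 without Bell-B replicate 1 or 2 or without Cap-B+2D replicate 1 or 3.

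In the lingual part, 36 of 41 genes tested were called higher in Bell-L than in Cap-L and 0 lower, against 14.2% and 5.78% of 21425 genes, with a median of 2.10, or 2.06 with genes at the floor held at their bound. The number lower became 1 or 2 when any 1 of 7 of the 9 lingual libraries was left out (all but Bell-L replicate 3 and Cap-L replicate 2), and Actn3, at -0.49 ± 0.071, lay just inside the limit. After culture, 38 of 41 were called higher in Cap-L+2D than in Cap-L and 0 lower, against 19.6% and 15.9%, with a median of 3.46 (9 of 10 smooth muscle and 6 of 8 macrophage markers were called higher and 8 of 8 red blood cell markers lower there), or 3.43 over 39 genes with those at the floor held at their bound or, where both groups were there, left out. Bell-L was below Cap-L+2D for 35 of 41 and above it for 3, against 14.4% and 16.8%, with a median of -1.40. The 3 were Mybpc1, at 2.60 ± 0.088 on the log2 scale (SE), Ckm, at least 7.28-fold higher, and Sln, at least 5.597-fold higher. Ryr1 and Myom1 changed little between Cap-L and Bell-L, at 0.15 ± 0.088 and 0.14 ± 0.11, and were not called.

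The undivided mesenchyme did not share the rise from cap to bell. Of 29 genes tested, 1 was called higher in Bell-W than in Cap-W and 2 lower, against 10.3% and 4.21% of 20940 genes, and the median was -0.22, or -0.17 without Cap-W replicate 1 and -0.37 without Bell-W replicate 3. Tpm2 was higher by 0.98 ± 0.15 (SE; edgeR adjusted p = 0.00468), and Mybpc1 and Myl4 were lower, at -2.17 ± 0.41 and -1.35 ± 0.21. All 3 kept their call when either of these libraries was left out, and Myh3, at -1.11 ± 0.43 and not called, was called lower at -1.65 ± 0.37 without Bell-W replicate 3. The number called lower was 3 without Cap-W replicate 1 or without Bell-W replicate 3, and 1 without Bell-W replicate 2 or Cap-W replicate 3. With all 24 libraries in 1 fit, which lends these libraries the smaller spread of the others, 8 were called higher and 9 lower. Of other cell types, 8 of 8 endothelial and 8 of 8 macrophage markers were called higher in Bell-W, with medians of 1.15 and 2.17, and their part in these values was not tested.

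The undivided libraries were also set against the lingual part, a comparison added after the values had been seen. In Cap-L against Cap-W, 2 of 30 genes, Actn3 and Des, were called higher and 1, Myl4, lower, against 9.25% and 5.63% of 20822 genes. Without Cap-W replicate 1 these were 4 and 5, and without Cap-L replicate 2 the number lower was 2. Endothelial markers were called higher in Cap-L for 8 of 8 and macrophage markers for 7 of 8. In Bell-L against Bell-W, 26 of 38 were called higher and 0 lower, against 4.53% and 2.88% of 21155 genes, with a median of 2.21, and without Bell-W replicate 3 it was 34 with a median of 2.72. Actc1 differed there by 3.93 ± 0.35 (SE) and Myh3 by 4.03 ± 0.30, or by 4.22 ± 0.22 and 4.58 ± 0.14 without that library. Macrophage markers were higher in Bell-L for 6 of 8 and endothelial ones for 3 of 8. The sum without Tpm2 was 4.45 times as high in Bell-L as in Bell-W and 28.97 times as high in Bell-B, or 4.64 and 30.3 times without Bell-W replicate 3, so the undivided bell mesenchyme lay below both of the parts into which germs of that stage had been cut.

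The question of embryonic against later isoforms was put as a ratio within each library, on the log2 scale and per exon length after adding 0.5 to each count. Reads of either gene from cells other than muscle enter such a ratio too, and their part was not tested. In Cap-W, Myl4 had a mean of 9.62 CPM while Myl1 was at or under 3 counts in every library. With 3 libraries against 3, an exact permutation test cannot go below p = 0.1, two-sided, so none of these changes could pass 0.05. Actc1 exceeded Acta1 in every library of the divided germs. The mean log2 ratio was 2.77 ± 0.054 (SD, n = 3) in Cap-B, 2.12 ± 0.064 in Bell-B and 2.11 ± 0.070 in Cap-B+2D. Actc1 was 6.82 times Acta1 in Cap-B and 4.35 times in Bell-B, and the ratios of those groups did not overlap (exact permutation p = 0.1). In the lingual part it was 1.32 ± 0.24 in Cap-L, 1.71 ± 0.10 in Bell-L and 1.52 ± 0.061 in Cap-L+2D.

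The other pairs did not all move that way. Myh3 over Myh8 was 4.05 ± 0.066 in Cap-B, 3.91 ± 0.035 in Bell-B and 4.23 ± 0.027 in Cap-B+2D, a small fall and a small rise, each without overlap (exact permutation p = 0.1). In the lingual part it was 3.10 ± 0.32 in Cap-L, 2.56 ± 0.080 in Bell-L and 4.21 ± 0.062 in Cap-L+2D. Myl4 over Myl1 went up, from 1.29 ± 0.25 in Cap-B to 1.65 ± 0.058 in Bell-B and 2.33 ± 0.025 in Cap-B+2D. The step to Bell-B was narrow, with libraries of both groups at about the same ratio, 1.57 in the highest of Cap-B and 1.58 in the lowest of Bell-B (exact permutation p = 0.1, and p = 0.2 with overlap when nothing was added to the counts). Tnnt2 over Tnnt3 also went up, from -1.03 ± 0.26 to -0.36 ± 0.055 and -0.59 ± 0.038. Per exon length Tnnt3 stayed the higher of the pair. In CPM the order was the reverse, with means of 6.01 for Tnnt2 and 2.49 for Tnnt3 in Cap-B. These means were 51.2 and 13.4 in Bell-B and 255 and 78.5 in Cap-B+2D. The order thus depends on the exon lengths used, 7752 bases for Tnnt2 and 1583 for Tnnt3, which take in all annotated exons. So of 4 pairs set as an earlier over a later form, from Cap-B to Bell-B the mean ratio was lower in 2 and higher in 2. By class, however, Myh8 is listed as a fetal form and Myl1 as a fast form. Only Acta1 and Tnnt3 come from the class of later forms, and of their pairs the first ratio was lower and the second higher.

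The other groups did not follow the buccal part throughout. In the lingual part, Myl4 over Myl1 was 3.33 ± 0.12 in Cap-L, 1.64 ± 0.44 in Bell-L and 2.55 ± 0.27 in Cap-L+2D. Both later groups lay below Cap-L without overlap, where the buccal ratio was higher in both, and the difference between the parts was not tested. Tnnt2 over Tnnt3 was -3.12 ± 0.42 in Cap-L, -1.66 ± 0.098 in Bell-L and -1.10 ± 0.11 in Cap-L+2D. In the undivided mesenchyme, Tnnt2 over Tnnt3 was lower in Bell-W than in Cap-W by a difference of -1.72 and Myh3 over Myh8 by one of -3.12, both without overlap (exact permutation p = 0.1). These were -1.48 (exact permutation p = 0.2) and -2.93 without Cap-W replicate 1, and -2.06 and -2.76 without Bell-W replicate 3. Actc1 over Acta1 differed by -0.44 there, with overlap (exact permutation p = 0.4).

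Of the slow over fast pairs, Tnnt1 over Tnnt3 fell from 3.21 ± 0.12 in Cap-B to 2.00 ± 0.053 in Bell-B and 1.46 ± 0.024 in Cap-B+2D without overlap (exact permutation p = 0.1). Tnni1 over Tnni2 was 0.67 ± 0.26 in Cap-B, 0.37 ± 0.080 in Bell-B, where the groups overlapped (exact permutation p = 0.2), and 1.25 ± 0.063 in Cap-B+2D. Myl3 over Myl1 fell from -1.56 ± 0.49 to -4.07 ± 0.57 and -5.61 ± 0.25 while Myl3 itself stayed under 1 CPM. In the lingual part Tnnt1 over Tnnt3 was 1.30 in Cap-L, 0.98 in Bell-L and 0.86 in Cap-L+2D on average, and Tnni1 over Tnni2 was -1.38, -0.62 and 0.49. The ratios with Chrne, Tnnc2 or Mybpc2 as partner rest on a few counts of it in several groups and are not given.

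**Figure D4:**
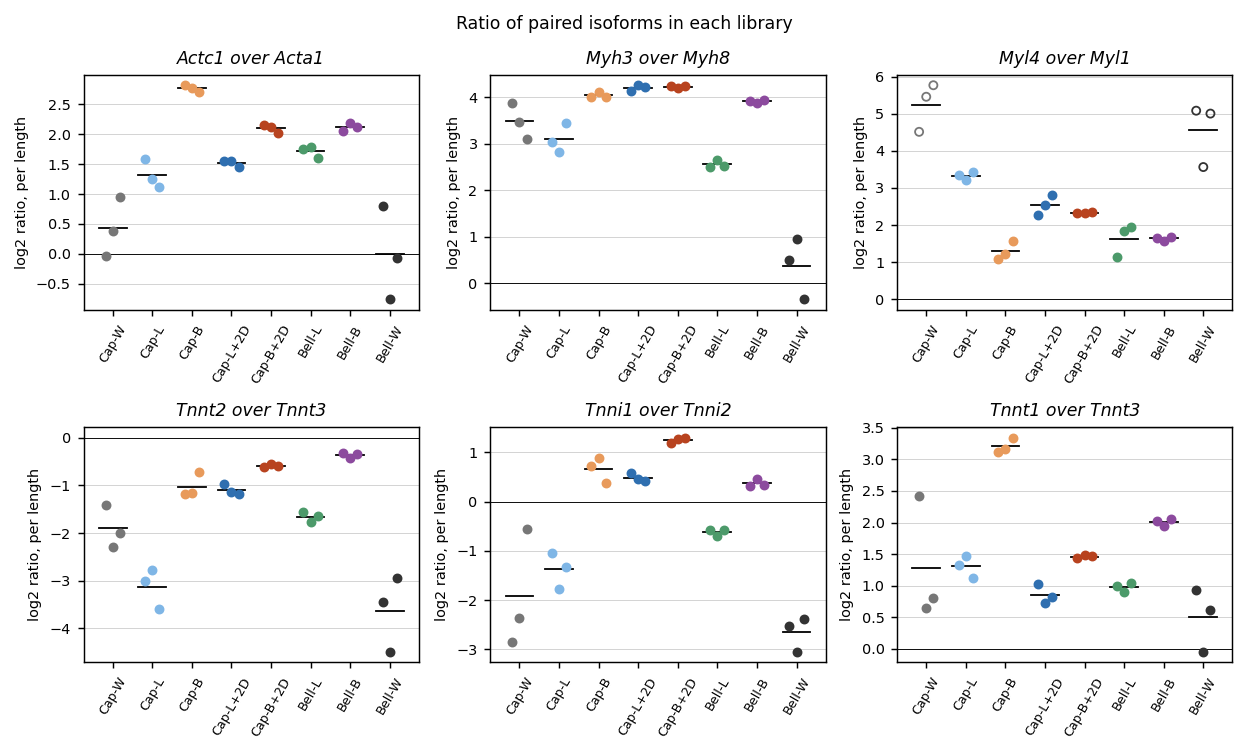
Log2 ratio of the levels per length of 6 isoform pairs in each library (points), by group, with the group mean as a line. The first 4 panels set an embryonic or fetal form over one taken as its later partner (Myh8 is listed as a fetal and Myl1 as a fast form). The last 2 set a slow over a fast one. Open points mark groups in which the second gene was at or under 3 counts in every library. From Cap-B to Bell-B, Actc1 over Acta1 falls and Tnnt2 over Tnnt3 rises, and Tnnt1 over Tnnt3 falls.

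Other muscle genes moved with the contractile ones. Over all genes tested, 10.4% were called higher and 7.10% lower in Cap-B, 6.00% and 6.88% in Bell-B, and 12.5% in each direction in Cap-B+2D. Of 49 other genes of the muscle fibre, 37 were tested at the cap stage, with 23 called higher in Cap-B and 4 lower, 44 at the bell stage, with 36 higher and 2 lower, and 46 in culture, with 40 higher and 2 lower. Of 14 regulators of myogenesis, 8 of 13 were higher in Cap-B and 2 lower, 9 of 14 were higher in Bell-B and 1 lower, and 12 of 14 were higher in Cap-B+2D and 0 lower. Myod1 and Myog, which switch on the contractile genes, differed by 4.80 ± 0.14 and 3.58 ± 0.12 at the cap stage on the log2 scale (SE), by 2.65 ± 0.07 and 2.06 ± 0.053 at the bell stage and by 3.66 ± 0.055 and 3.63 ± 0.047 in culture.

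Markers of several other cell types also differed between the parts, and their part in the results was not tested. Smooth muscle markers, 10 genes that include Des and Acta2, summed to 135 to 137 CPM in Cap-L, 198 to 201 in Cap-B, 207 to 214 in Bell-L, 414 to 425 in Bell-B, 642 to 683 in Cap-L+2D and 1607 to 1731 in Cap-B+2D. None of them was at the floor throughout a group, and 5 of 9 tested were called higher in Cap-B, 3 of 10 in Bell-B and 5 of 10 in Cap-B+2D, with 1, 1 and 3 lower. Of 10 cardiac muscle markers, Nppa, Nppb and Myl7 were at or under 3 counts in all libraries of each divided group, and their sum was 16.0 to 16.5 CPM in Cap-L and 82.4 to 91.2 CPM in Cap-B+2D. Of those tested, 3 of 5 were called higher in Cap-B (Gja5, Hcn4 and Myh6), 4 of 7 in Bell-B (Gja5, Mybpc3, Myh6 and Nkx2-5) and 3 of 7 in Cap-B+2D (Gja5, Myh6 and Nkx2-5), with Ryr2 lower in each. Mybpc3 and Myh6 also stand in the list of other muscle fibre genes.

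Schwann cell markers were higher in the buccal part at the cap stage, with 6 of 7 called and 1 lower, at 62.2 to 67.2 CPM in sum against 29.5 to 31.1 CPM. For this list and those that follow, the shares over all genes are those of the paragraph above. Of 6 tendon and connective tissue markers, 4 were called higher and 2 lower in Cap-B, 3 and 2 in Bell-B and 4 and 2 in Cap-B+2D. Epithelial markers went the other way, with 8 of 9 lower in Cap-B, 4 of 10 lower in Bell-B and 9 of 10 lower in Cap-B+2D, where they summed to 31.3 to 32.4 CPM against 316 to 345 in Cap-L+2D. Endothelial markers were called in neither direction at the cap and bell stages and lower for 7 of 8 in Cap-B+2D, and macrophage markers were lower for 7 of 8 in Bell-B and 5 of 8 in Cap-B+2D. Red blood cell markers summed to 29.6 to 35.8 CPM in the cultured groups and 2467 to 5698 in the other divided groups. Of 12 dental mesenchyme markers, 2 were higher and 1 lower in the buccal part at each stage, and 1 was higher and 5 lower in culture.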

How the data were processed

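Raw counts of read pairs per gene were used as deposited: per the file headers, the authors counted alignments to GRCm39 with featureCounts over exons of the Ensembl annotation, without strand. The submitters' processing notes name FastQC 0.12.1, Trimmomatic 0.39, Bowtie 1.2.3, Subread 2.0.3 and DESeq2 1.40.2, while the study's methods name STAR, so the aligner is uncertain. Gene symbols were found for 56017 of 56748 identifiers.

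The members and all gene lists were chosen with earlier results of these data known. Genes passing filterByExpr were fitted with TMM normalization and the quasi-likelihood test of edgeR 4.0.16 (R 4.3.3), with the libraries of the groups compared. A gene low in one group could pass that filter through the other, which favors a call toward the group where it is high. Calls needed a Benjamini-Hochberg adjusted p under 0.05 over all genes tested and a log2 fold change over 0.5 in size; interactions had no limit on the fold. A fold against a group with at most 3 counts in each library was taken as a bound against 3 counts per library, which is 0.0764 to 0.146 CPM and covers counting error only. The method was tested on simulated data. Alternatives were RLE factors, TMM factors without muscle genes, DESeq2 1.42.0, other filters and fold limits, all 24 libraries in 1 fit, a replicate block, and each library left out in turn.

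Values in every library are given for the members of isoform pairs, for the 2 highest members of each role group, for any member called against the direction of most, and for the largest and smallest called difference between the parts. The embryos came from several pregnant mice, and which of them went into which library is not given in the sources used here, so p-values measure the spread between these samples, which may be technical. In the divided groups, the chi-square between libraries of a group ran from 1.32 to 9.84 per degree of freedom. The lowest was that of Cap-B replicates 1 and 3 and the highest that of Cap-L replicates 2 and 3. Sampling noise alone gives about 1, so very small p-values can reflect such a narrow spread. Same-numbered libraries did not deviate together (correlations from -0.22 to 0.27, over 0.1 in 7 of 48 pairs), so the numbers were not taken as pairs.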

Additional observations from a re-analysis of the deposited data

Results flagged for a closer look

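The side difference of 17 of the genes given by library differed between the cap and bell stages by the edgeR interaction test (adjusted p under 0.05). Of all 21931 genes tested, 14.5% passed with a positive and 18.0% with a negative change. On the log2 scale, the buccal excess was larger at the bell stage by 1.78 in Myl4, 1.29 in Tnni2, 1.15 in Ryr1, 0.83 in Atp2a1, 0.82 in Tnnc1, 0.53 in Mylpf, 0.49 in Tnnt3 and 0.30 in Tpm2. It was smaller, with a change of -4.61 in Mybpc1, -2.76 in Sln, -1.16 in Actc1, -0.79 in Chrna1, -0.73 in Chrng, -0.69 in Myh8, -0.38 in Tnnt1, -0.34 in Ttn and -0.30 in Myh3. Sln was at or under 3 counts in each Cap-L library, so its value depends on the prior count.

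The same test between fresh and cultured cap parts was passed by 15 of these genes. Of all 22098 genes tested, 16.0% passed it with a positive and 19.5% with a negative change. The excess was larger after culture by 2.55 in Ryr1, 2.52 in Myl4, 2.14 in Atp2a1, 2.13 in Tnni2, 1.98 in Tnnt3, 1.15 in Tpm2, 1.09 in Des, 1.05 in Tnnc1, 0.94 in Mylpf, 0.84 in Tnni1, 0.81 in Smyd1 and 0.69 in Tnnt1. It was smaller, with a change of -0.67 in Mybpc1, -0.52 in Actc1 and -0.44 in Myh3.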

How the results depend on the processing

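Of 476 counts of called genes recomputed under the alternatives, 434 stayed within 1.5 times the reported count, and the 36, 41 and 43 genes called higher in the buccal part at the cap stage, at the bell stage and in culture were also 36, 41 and 43 with the replicate block. Of 1027 recomputed log2 fold changes, 1009 kept direction and side of the threshold, 12 (Tnni2 and Tcap) lost their call and 6 (Myl3) changed sign, and the 183 recomputed isoform ratios of pairs whose second gene was above 3 counts kept their direction (pairs with that gene at or under 3 counts throughout a group were left out, and some of those changed sign). The causes of the changes below were not tested. In Bell-W over Cap-W, the number higher was 2 by DESeq2, 3 with no filter, 8 with all 24 libraries in 1 fit, 0 with a fold limit of 1 and 2 with the replicate block, and the number lower was 9 with all 24 libraries and 1 to 3 with a library left out. In Cap-L over Cap-W, the number higher was 4 and the number lower 6 with all 24 libraries, the number lower was 2 by DESeq2 and 3 with no filter, and with a library left out they were 2 to 4 and 1 to 5. In Bell-L over Cap-L, the number lower was 1 with no filter or no fold limit and 0 to 2 with a library left out. The number higher was 1 in Bell-L over Cap-L+2D with a mean of at least 10 counts, and in Bell-B over Cap-B+2D it was 2 by DESeq2, with no filter or with no fold limit and 1 to 2 with a library left out. The number lower in Bell-B over Bell-L was 0 with a fold limit of 1. In the stage interaction, the number larger was 7 with all 24 libraries and 5 with a fold limit of 1, and the number smaller was 6 by DESeq2, 3 with all 24 libraries or a fold limit of 1 and 4 to 10 with a library left out. In the culture interaction, the number smaller was 1 with all 24 libraries and 0 with a fold limit of 1. With a library left out, the log2 fold change of Myl3 between the parts lay between -0.48 and 0.40 in fresh cap germs and between -0.17 and 0.31 in culture, never past the threshold. Depth limits Ckm, Lmod2, Myl2, Sln, Tnnc2, Trdn and Xirp1, which were each at or under 3 counts throughout 3 or more groups.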
